A study of Mus musculus with 2 samples.

Results

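This account covers 10 genes of fibroblast growth factor (Fgf) ligands, Fgf3, Fgf4, Fgf6, Fgf8, Fgf9, Fgf10, Fgf15, Fgf17, Fgf18 and Fgf20, among 21887 protein-coding genes, and the H3K27me3 found at them in mouse sciatic nerve. The genes were taken as a named list, and a peak was counted for a gene when it overlapped the annotated gene span or the 10 kb on either side by at least 1 bp. H3K27me3, trimethylated lysine 27 of histone H3, was profiled by ChIP-seq, in which an antibody pulls down chromatin that carries the mark and the attached DNA is sequenced, in nerve of C57/BL6 males aged 8 weeks, with 1 ChIP library and 1 library of input chromatin. No treatment, injury or genetic change is named in the labels. The labels give no sorting of cells and no number of animals. All values below come from the 1 deposited list of 6018 peaks on mm10, and no values of the input library were analysed here. With a single library there is no replicate error, no test and no p-value. All intervals are 95%, and those for reads (exact Poisson) cover counting error only. Those for shares (exact Clopper-Pearson) treat the genes of a list as independent draws. Chosen and linked genes are not such draws, so these intervals only show how small the lists are.

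Most Fgf ligands are secreted proteins that bind heparan sulfate and activate tyrosine kinase receptors, which signal through adaptors to the MAP kinase cascade. Many of them act in the embryo, for example in the limb bud, the midbrain-hindbrain border and the inner ear, and are silent in most adult tissues. Polycomb repressive complex 2 lays down H3K27me3, and in vertebrates it tends to settle at CpG-rich promoters of silent developmental genes. The sciatic nerve holds Schwann cells, fibroblasts, endothelial cells, macrophages and axons, and a peak in bulk tissue does not tell which of these cells carry the mark or whether fewer cells carry more of it.

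Of 6 Schwann cell markers, Mbp and Sox10 had a peak within 10 kb, each of 11 reads and so near the smallest in the list, and Pmp22, Prx, Mag and S100b had none. Of 5 macrophage markers none had a peak. Of 5 fibroblast and perineurial markers, Pdgfra had one, with 85 reads in 4 peaks. Of 5 endothelial and mural markers, Pdgfrb had 18 reads and Rgs5 12, and of 5 muscle and fat markers, Acta1 had 79 and Ckm 16. All 5 markers of neuron cell bodies, which lie outside the nerve, had a peak, from 12 reads at Snap25 and 17 at Syt1 to 268 at Rbfox3, 269 at Slc17a7 and 335 at Slc32a1. The peaks counted for Snap25, Pdgfrb and Ckm lay in the 10 kb flanks and covered no base of the gene. Of the 26 markers other than those of neurons, 7 had a peak (26.9%), beside 13.7% of all protein-coding genes. A peak of at least 20 reads lay at 2 of the 26 (7.69%, against 6.77%). Peak lists hold no expression, so the tissue label could be set only against where the mark was called. The authors' score of each peak was read as a number of reads (its step is described with the processing). The lowest peak held 10 reads, with an interval of 4.80 to 18.4, and 24.8% of all peaks held that number. A gene without a listed peak is therefore below the level at which peaks were listed, which is not the same as a gene without the mark.

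The DNA just upstream of the start site is printed for 5 of the genes, because it contrasts starts under a peak with starts that no peak reached. Each is the 250 bases before the RefSeq start (GRCm38.p6, the assembly of mm10), read 5′ to 3′ on the gene's strand, with CpG dinucleotides in capitals. The first 3 lay entirely under a peak, and no peak touched the last 2. The RefSeq promoter table was matched for 6 of the 10 genes, these 5 and Fgf9, and not for Fgf8, Fgf15, Fgf17 and Fgf20.
Fgf3, chr7:144838362-144838611, plus strand: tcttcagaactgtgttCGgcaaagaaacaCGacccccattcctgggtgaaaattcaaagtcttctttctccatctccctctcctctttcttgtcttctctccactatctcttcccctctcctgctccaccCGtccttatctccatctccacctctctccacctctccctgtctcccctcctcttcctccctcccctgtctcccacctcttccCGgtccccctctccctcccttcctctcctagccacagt
Fgf4, chr7:144861136-144861385, plus strand: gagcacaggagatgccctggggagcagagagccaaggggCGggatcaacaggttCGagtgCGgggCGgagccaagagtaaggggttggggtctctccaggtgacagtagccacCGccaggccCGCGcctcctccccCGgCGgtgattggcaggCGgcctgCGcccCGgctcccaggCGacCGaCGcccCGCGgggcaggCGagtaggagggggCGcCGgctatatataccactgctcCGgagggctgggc
Fgf10, chr13:118714449-118714698, plus strand: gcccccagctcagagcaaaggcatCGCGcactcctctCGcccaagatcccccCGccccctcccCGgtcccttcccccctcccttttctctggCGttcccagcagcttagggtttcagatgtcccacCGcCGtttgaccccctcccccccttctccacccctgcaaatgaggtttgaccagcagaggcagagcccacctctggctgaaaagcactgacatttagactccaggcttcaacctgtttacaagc
Fgf6, chr6:127015292-127015541, plus strand: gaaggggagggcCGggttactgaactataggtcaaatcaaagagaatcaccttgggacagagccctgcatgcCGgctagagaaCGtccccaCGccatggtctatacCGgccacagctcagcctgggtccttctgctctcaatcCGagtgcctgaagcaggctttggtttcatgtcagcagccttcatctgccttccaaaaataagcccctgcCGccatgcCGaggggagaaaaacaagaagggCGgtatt
Fgf18, chr11:33147401-33147650, minus strand: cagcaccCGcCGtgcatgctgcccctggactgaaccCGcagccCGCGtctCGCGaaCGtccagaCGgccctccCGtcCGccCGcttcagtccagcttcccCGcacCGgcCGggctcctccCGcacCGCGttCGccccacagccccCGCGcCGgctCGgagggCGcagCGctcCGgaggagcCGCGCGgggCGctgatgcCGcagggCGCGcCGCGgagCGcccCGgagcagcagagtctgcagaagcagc
The stretches under a peak held 4 CpG at Fgf3, 21 at Fgf4 and 8 at Fgf10. Those with no peak held 9 at Fgf6 and 37 at Fgf18. The start with the most CpG of the 5 was thus one without a peak. The order of the others depends on the stretch counted: with the 50 bases after the start included, Fgf3 had 14 CpG, and Fgf10 and Fgf6 had 10 each.

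The mark at the 10 genes ranged from a broad region over Fgf8 to a single peak of the smallest listed size at Fgf10. In all, 18 peaks with 532 reads (487.7 to 579.2) lay within 10 kb of them and spanned 23602 bp. Of the 10 genes, 4 had 1 peak, 4 had 2 and 2 had 3. Since the genes were listed with their peaks known, that each had one is no finding. By the same count 13.7% of protein-coding genes (2988 of 21887) had a peak. A peak also reached into the gene span itself at all 10. The same held for 9.77% of protein-coding genes and for 71.6% of those with a peak within 10 kb. The median over the 10 genes was 43 reads, against 25 over all protein-coding genes with a peak. Of the 10, 7 lay above 25, a level that by definition splits the genes with a peak about evenly. The 10 were listed with their peaks known, so nothing is read from this difference.

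**Figure D1:**
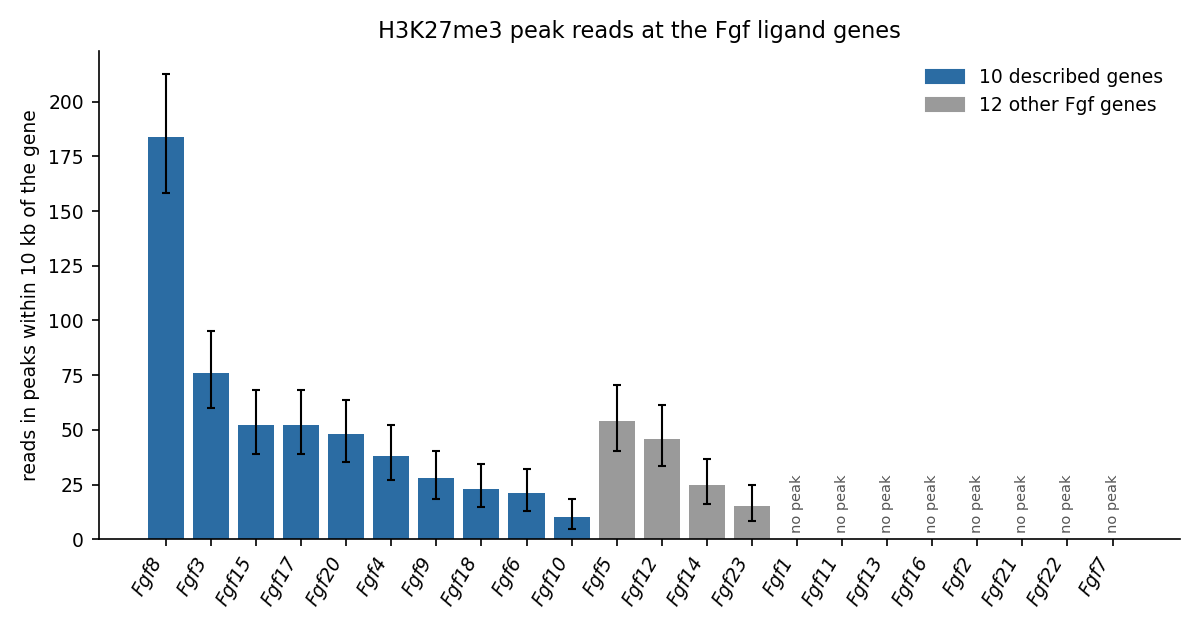
Reads in H3K27me3 peaks within 10 kb of each of the 22 Fgf ligand genes (y axis, reads), with exact 95% Poisson intervals. Blue bars are the 10 described genes and grey bars the 12 others; Fgf8 stands highest at 184 reads, and 8 of the others have no listed peak.

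Fgf8, Fgf17 and Fgf18 form the Fgf8 subfamily, paracrine ligands of brain, limb and skeletal development. Fgf8, which patterns the midbrain-hindbrain border and the limb bud, carried the most of the mark. Its 3 peaks (chromosome 19, gene at 45736491 to 45742941) held 24, 14 and 146 reads, 184 in all (158.4 to 212.6), and made up 34.6% of the reads at the 10 genes. The largest spanned 5274 bp from 45741147 to 45746420, covered the higher-coordinate end of the gene and ran 3479 bp beyond it. Together the peaks covered 57.4% of the Fgf8 span. Merged within 5 kb they formed a region of 9209 bp, which ranked 303 in width among 3818 such regions. The next protein-coding gene, Npm3, a nucleoplasmin gene, starts at 45747734, beyond the end of the last peak, and no peak within its own 10 kb was other than those of Fgf8.

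In a ranking of protein-coding genes by reads within 10 kb, Fgf8 stood at 269 of the 2988 with a peak. Directly above it stood Macf1, a cytoskeletal linker, with 185 reads, and Ncan, a brain proteoglycan, with 187. Level with it at 184 reads stood Npm3, through the same peaks, and Pou2f2, a lymphoid transcription factor. Reads are not divided by gene length in this ranking, and Macf1 reached its count through 9 peaks. With 1 library, likeness of pattern across samples could not be measured.

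Fgf17, a ligand of the developing cerebellum, also had 3 peaks (chromosome 14, gene at 70636203 to 70642268), of 12, 30 and 10 reads. Its largest spanned 1421 bp over the higher-coordinate end of the gene, as at Fgf8, with the smaller ones on either side. Its total of 52 reads (38.8 to 68.2) was below that of Fgf8, with intervals that did not overlap. Npm2, another nucleoplasmin gene, starts 5.03 kb beyond Fgf17, and Dmtn lies 0.155 kb from the other end of Fgf17. No peak touched the span of either, but the 10 kb count credits both with the same 3 peaks and 52 reads.

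Fgf18, needed for bone and lung growth, differed from both of its relatives in that no peak reached either end of the gene. It had 1 peak of 12 reads inside the gene, centred 24041.5 bp downstream of the start site, and 1 of 11 reads lying 4065 bp beyond the 3′ end (chromosome 11, gene at 33116970 to 33147400). Both had the smallest width in the list, 500 bp. The start of Fgf18 and Npm1, 5.10 kb upstream of it, had no peak. Within 50 kb there were 3 more peaks, among them one of 9245 bp with 316 reads that overlapped Tlx3, a homeobox gene of sensory neurons, and one of 3625 bp with 74 reads next to it. That flank took the count for Fgf18 from 23 to 424 reads, so a wide window would report the Tlx3 region as Fgf18.

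Fgf3, Fgf4 and Fgf15 lie side by side on chromosome 7 within 62.3 kb (144838612 to 144900953), in the order Fgf3, Fgf4, Fgf15. They belong to different subfamilies: Fgf3 acts in the inner ear, Fgf4 in the early embryo and the limb bud, and Fgf15 is the mouse counterpart of the gut hormone FGF19. Each gene had peaks of its own, 5 in all with 166 reads (141.7 to 193.3). The mark was not continuous, since peaks covered 10.9% of the locus.

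Fgf3 had 1 peak of 76 reads (59.9 to 95.1) and 3678 bp, from 144837299 to 144840976, which covered the start site and 49.9% of the gene. A gap of 19930 bp without a listed peak followed. At Fgf4, a peak of 28 reads and 1046 bp was centred 43.5 bp downstream of the start site, and one of 10 reads lay inside the gene. A second gap, of 30474 bp, separated these from the peaks of Fgf15. Those held 15 reads just below the gene and 37 reads over its lower-coordinate end, and the second covered 2038 bp of the gene. Both Fgf15 peaks also lay inside Gm26793, a long non-coding RNA gene (144894121 to 144899688) that spans most of Fgf15, so their reads cannot be assigned to one of the 2 genes.

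The mark at the locus stopped at the Fgf genes on both sides, at the level at which peaks were listed. LTO1, a ribosome biogenesis factor 14.2 kb beyond Fgf15, and Ccnd1, which encodes cyclin D1, had no peak within 10 kb. On the other side, 1 peak of 10 reads lay inside Ano1, a chloride channel gene, and it was the only other peak within 200 kb of the locus.

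**Figure D2:**
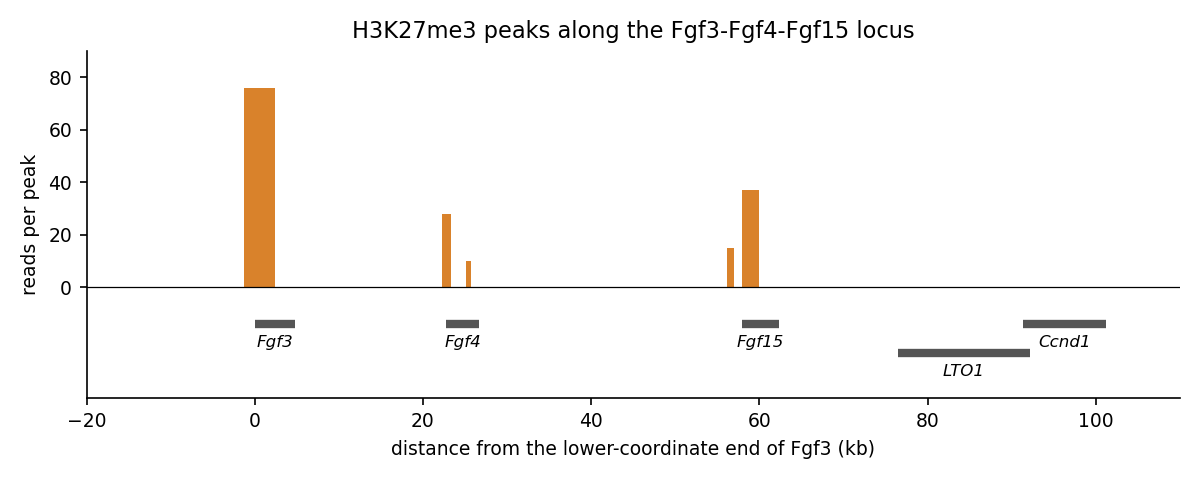
Peaks along the Fgf3-Fgf4-Fgf15 locus, by distance from the lower-coordinate end of Fgf3 (x axis, kb), with reads per peak (y axis); bar widths are peak widths to scale and grey lines are genes. The 76-read peak at Fgf3, the 28- and 10-read peaks at Fgf4 and the 15- and 37-read peaks at Fgf15 are separated by stretches with no listed peak, and none lies over LTO1 or Ccnd1.

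Fgf6 and Fgf9 carried the mark inside the gene, away from the annotated start. Fgf6, a ligand of skeletal muscle and a relative of Fgf4, had 1 peak of 21 reads (13.0 to 32.1) and 1062 bp, from 127020777 to 127021838 on chromosome 6, centred 5766 bp downstream of its start. Fgf9, which acts in testis and lung development, had 1 peak of 28 reads (18.6 to 40.5) and 1576 bp, from 58074208 to 58075783 on chromosome 14. Its centre lay 2310 bp downstream of the one start in the RefSeq promoter table, and it covered 3.74% of the 42.2 kb gene. No other peak lay within 934.3 kb of Fgf9.

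Fgf20, a relative of Fgf9 that acts in inner ear and kidney, had a peak of 38 reads (26.9 to 52.2) over the higher-coordinate end of the gene (chromosome 8, 40286074 to 40287155). This peak had the most reads per covered kb of the 18, at 35.1 (24.9 to 48.2), against a median of 21.0 over all peaks in the list. The interval includes the 27.7 reads per kb of the broad Fgf8 peak. A second peak of 10 reads lay 1380 bp outside the gene, and the next peak after these was 1618 kb away.

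Fgf10, which drives limb and lung budding, had the least. Its only peak held 10 reads (4.80 to 18.4) in 500 bp, from 118714222 to 118714721 on chromosome 13. It lay over the start site and covered 23 bp of the 77.9 kb gene, and the nearest other peak was 1111 kb away. This is the lowest read number and the smallest width that the list contains.

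Peaks over an annotated gene end held most of the reads at the 10 genes. Of the 10 genes, 7 had such a peak (Fgf3, Fgf4, Fgf8, Fgf10, Fgf15, Fgf17 and Fgf20). So had 4.24% of protein-coding genes, and 31.1% of the 2988 with a peak within 10 kb. As the genes were listed with their peaks known, nothing is read from these shares. Those 7 peaks held 365 of the 532 reads (68.6%), 146 of them in the broad Fgf8 peak. The same share over all listed peaks was not computed, so nothing is read from it either. Another 7 peaks lay wholly inside a gene and 4 lay outside, and of the 6 peaks of the smallest width, 500 bp, 1 was over an end, the Fgf10 peak. The peaks at the 10 genes had a median of 20 reads per covered kb and a range of 17.8 to 35.1, against a median of 21.0 over all peaks. A peak of the smallest listed size, such as that of Fgf10, itself has 20 reads per kb. Both medians thus lie near a value set by the listing limit, and nothing is read from their likeness.

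**Figure D3:**
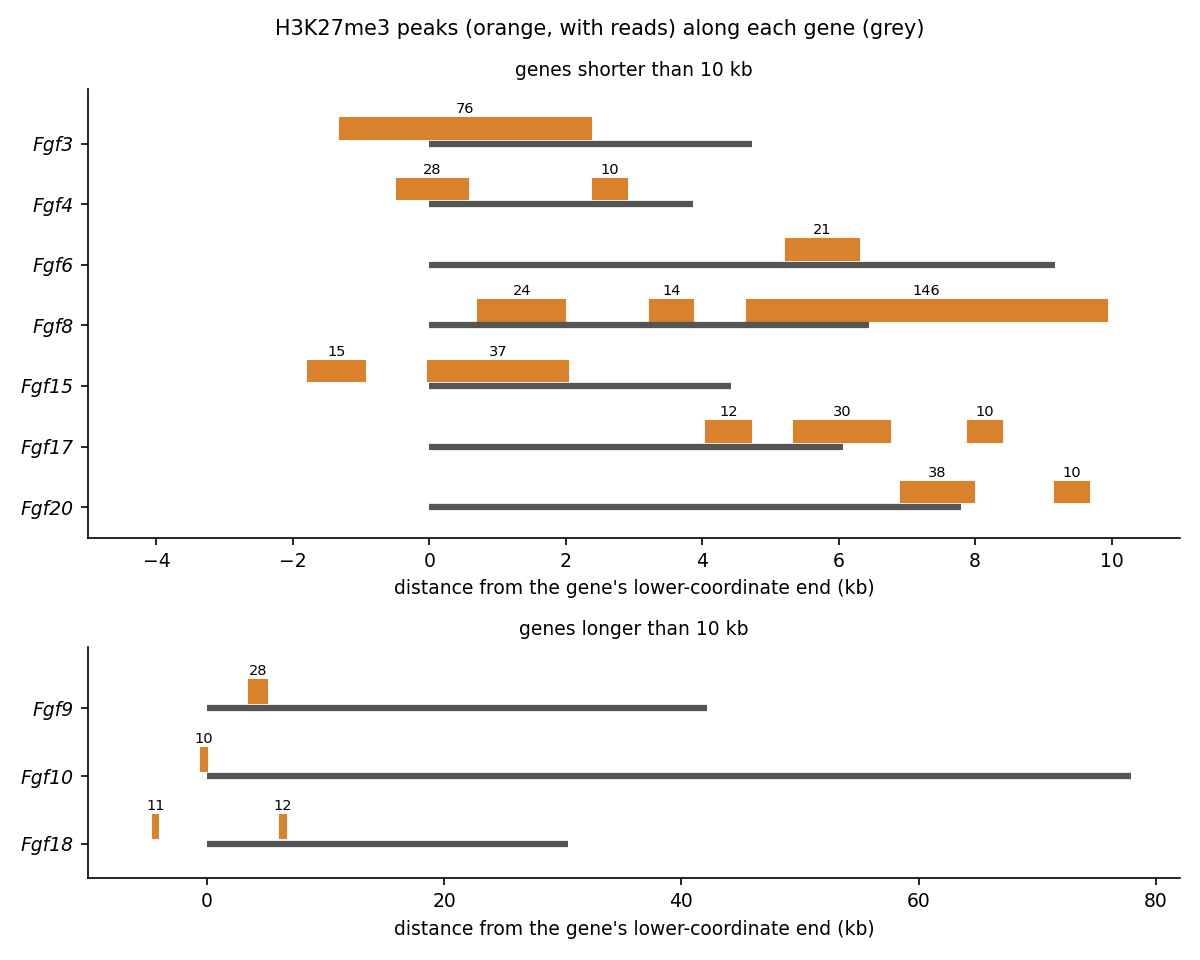
Peaks (orange, labelled with reads) along the 10 genes (grey), by distance from the lower-coordinate end of each gene (x axis, kb); genes shorter than 10 kb are above and longer ones below. Peaks cover an end at 7 genes, while those of Fgf6, Fgf9 and Fgf18 lie inside or outside the gene.

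Divided by the length of gene plus flanks, the order of the genes was Fgf8 with 6.96 reads per kb, Fgf3 with 3.07, Fgf15 with 2.13, Fgf17 with 2.00, Fgf20 with 1.73, Fgf4 with 1.59, Fgf6 with 0.720, Fgf18 with 0.456, Fgf9 with 0.4503 and Fgf10 with 0.102. Fgf8 exceeded Fgf3 by 2.26 times (1.72 to 2.998). Fgf3 exceeded Fgf15 by 1.44 times, with an interval that began at 1.001. Neighbours from Fgf15 to Fgf4 did not differ beyond counting error, nor did those from Fgf6 to Fgf9. Fgf4 exceeded Fgf6 by 2.21 times (1.27 to 3.97), and Fgf9 exceeded Fgf10 by 4.41 times (2.08 to 10.2). Only reads in listed peaks were counted, so bases without a listed peak lower the value of a long gene. The Fgf10 peak held the lowest read number listed, so its ratio also depends on the listing limit, which the interval leaves out. These intervals compare 1 library's reads and say nothing of variation between nerves.

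Among the other 12 Fgf genes, 4 had a peak (33.3%, 9.93 to 65.1), beside the 13.7% of all protein-coding genes. Fgf5, a hair cycle regulator, had 54 reads in a peak over its start, which is more than 8 of the 10 described genes had. Fgf12 had 46 reads in 2 peaks, Fgf14 25 in 2 and Fgf23, a bone-derived phosphate hormone that neighbours Fgf6, 15 in 1. No peak was listed at Fgf1, Fgf2, Fgf7, Fgf11, Fgf13, Fgf16, Fgf21 and Fgf22. Fgf1, Fgf2 and Fgf7 are ligands that many adult tissues make. Fgf13 and Fgf16 lie on the X chromosome. Whether either trait bears on the lack of a listed peak was not tested.

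Taken by subfamily, a peak lay at 3 of 3 genes of the Fgf4 group (Fgf4, Fgf5, Fgf6) and 3 of 3 of the Fgf8 group. It lay at 2 of 3 of the Fgf9 group, 2 of 3 endocrine genes, 2 of 4 of the Fgf7 group, 2 of 4 intracellular genes and 0 of 2 of the Fgf1 group. Groups of 2 to 4 genes leave wide intervals: that for 3 of 3 begins at 29.2%. Over the whole family, 14 of 22 genes had a peak (63.6%, 40.7 to 82.8), against 13.7% of protein-coding genes. Of the 22, 8 had one over an end (36.4%, against 4.24%) and 10 had one of at least 20 reads (45.5%, against 6.77%). The 14 include the 10 genes listed with their peaks known, so nothing is read from these family and subfamily shares. The share in the background also moved with gene length, from 11.5% in genes of at most 10 kb to 14.9% in longer ones.

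Fgf12 and Fgf14 encode intracellular partners of sodium channels and are very long genes. Of 4 RefSeq promoter windows of Fgf12 (chromosome 16), 3 lay under a peak, 1 under a peak of 15 reads (28445917 to 28446579) and 2 under a peak of 31 reads (28564025 to 28565377). The window at the outer end of the gene had none. At Fgf14 (chromosome 14) the 1 window in the table lay under a peak of 13 reads, deep inside the 703.2 kb annotated span. Both Fgf12 peaks therefore lay inside the span and over start sites of the table at the same time, whereas the peaks inside Fgf6 and Fgf9 lay over none.

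Fgf starts with and without a peak overlapped in CpG content. RefSeq windows of 300 bases (250 before the start and 50 after) were found for 16 of the 22 Fgf genes, 22 windows in all, of which 8 overlapped a peak (3.98% of all 32851 windows did), 7 of them in full and that of Fgf10 over 273 bases. The 8 held 10 to 34 CpG with a median of 25, and the 14 others 3 to 47 with a median of 11.5. Over all windows, the medians were 17 with a peak and 7 without. The share of all windows with a peak was 1.52% below 10 CpG and 8.37% from 10 to below 20. It was 6.89% from 20 to below 30 and 5.76% from 30 upward, so most CpG-rich windows had no peak. The ranges overlapped widely: Fgf10 and Fgf6 both had 10 CpG, and only the former lay under a peak, while Fgf18 with 47 and 2 Fgf13 windows with 37 and 40 had none. Several windows belong to one gene, so they are not independent.

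**Figure D4:**
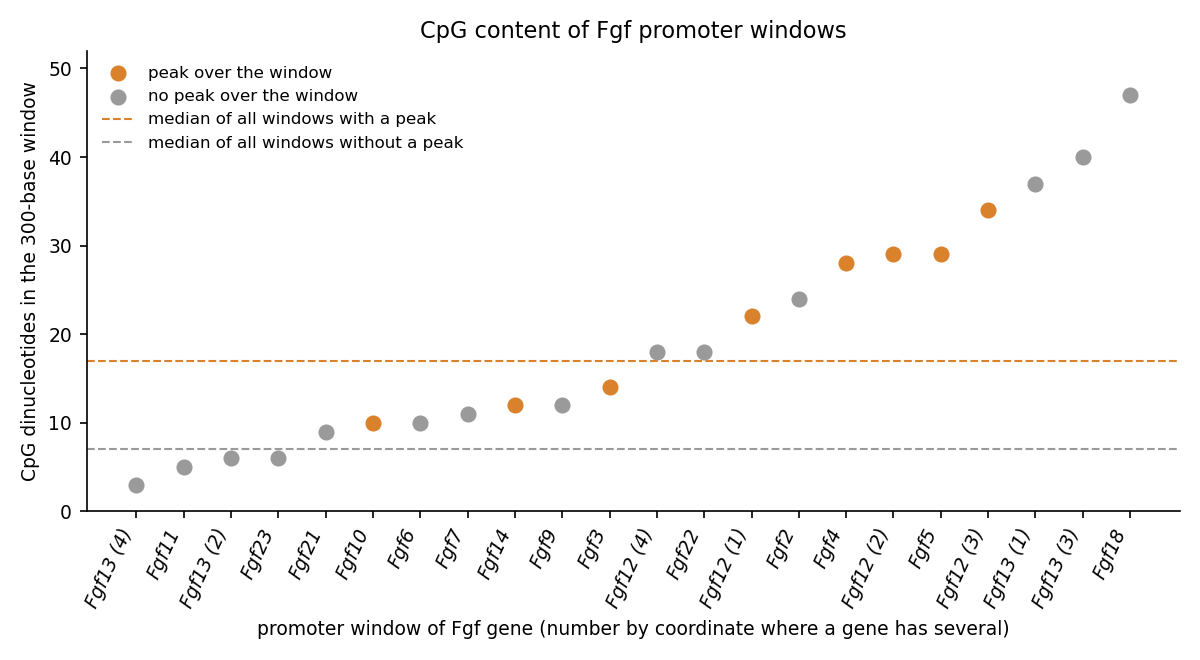
CpG dinucleotides in the 300-base promoter windows of Fgf genes (y axis, count), ordered from fewest to most; orange points lie under a peak and grey points do not, and dashed lines are the medians over all windows with (17) and without (7) a peak. Covered windows span 10 to 34 CpG, and Fgf18, with 47, is not covered.

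Of short promoter motifs searched on both strands, the GC box (GGGCGG or CCGCCC) was in 6 of the 8 Fgf windows under a peak and in 8 of the 14 others, against 35.7% of all windows and 57.4% of all windows under a peak. It contains a CpG, so it is not independent of the CpG count. The TATA box letters (TATAAA or TTTATA) were in 1 of the 8, at Fgf5, and in 2 of the 14, against 13.6% of all windows and 8.27% of those under a peak. The CCAAT box letters (CCAAT or ATTGG) were in 1 of the 8, at Fgf4, and in 5 of the 14, against 37.4% of all windows and 31.6% of those under a peak.

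Receptors of Fgf ligands carried the mark at several genes. Of 7 receptor and co-receptor genes, 4 had a peak (57.1%, 18.4 to 90.1), beside 13.7% of all protein-coding genes. At 3 a peak held at least 20 reads (42.9%, against 6.77%), and 2 had one over an end (28.6%, against 4.24%). Fgfr2, a receptor of epithelial and skeletal development, had 90 reads in 6 peaks (72.4 to 110.6), and one of them overlapped 71 of the 300 bases of its promoter window without reaching the start site. Fgfr3, a receptor that restrains bone growth, had 73 reads in 2 peaks within the gene, and neither of its 2 promoter windows was touched. Fgfr4, a liver receptor, had 15 reads and Kl, the Klotho co-receptor for Fgf23, 24 reads, each over a gene end, with 63 and 300 bases of the promoter window covered. Fgfr1, Fgfrl1 and Klb had no listed peak.

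Genes that bind, pass on or limit the signal had a peak in 6 of 48 cases (12.5%, 4.73 to 25.3), a share near the 13.7% of all protein-coding genes. Of 9 adaptor genes, 1 had a peak: Plcg1, a phospholipase, with 84 reads in 7 peaks, none over an end and each under 20 reads. Of 22 heparan sulfate genes, 2 did (9.09%), Hs6st3, a sulfotransferase, with 48 reads over an end and Gpc5, a glypican, with 26. Of 15 feedback and target genes, 3 did (20%, 4.33 to 48.1). Etv4, an Fgf-induced transcription factor, had 29 reads outside the gene, Flrt2, a membrane protein, had 23 inside it and Spry1, a feedback inhibitor, 10 outside it, and both of these peaks overlapped the promoter window, by 75 and 247 of its 300 bases. The carriers Fgfbp1 and Fgfbp3 had none. With the receptors, 10 of 55 genes had a peak (18.2%, 9.08 to 30.9), and the difference from the 13.7% of all protein-coding genes was not tested.

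**Figure D5:**
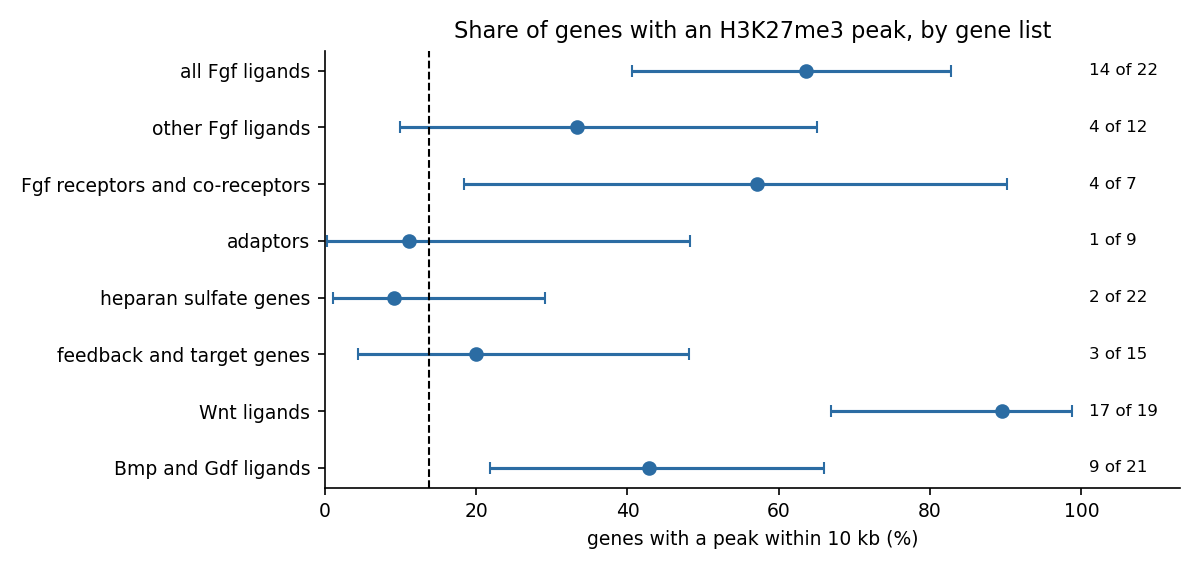
Share of genes with a peak within 10 kb (x axis, %) for each gene list, with exact 95% Clopper-Pearson intervals and counts at the right; the dashed line is the 13.7% of all protein-coding genes. All Fgf ligands stand at 14 of 22, Wnt ligands at 17 of 19 and heparan sulfate genes at 2 of 22.

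Other families of secreted signals were set beside the 22 Fgf genes by the same count. The 22 include the 4 intracellular genes, Fgf11, Fgf12, Fgf13 and Fgf14, of which 2 had a peak. Of 19 Wnt ligand genes, 17 had a peak (89.5%, 66.9 to 98.7), and of 21 Bmp and Gdf ligand genes, 9 (42.9%, 21.8 to 66.0). The share over all protein-coding genes was 13.7%. A peak of at least 20 reads lay at 12 Wnt genes (63.2%) and 5 Bmp and Gdf genes (23.8%), against 6.77% of protein-coding genes. The differences from all 22 Fgf ligands were not tested. Among genes with a peak, the median was 42 reads for Fgf ligands, 59 for Wnt ligands and 66 for Bmp and Gdf ligands. Fgf8 with 184 reads stood close to the highest of the other families, Wnt9b with 220 and Gdf6 with 213. Wnt9b and Wnt3 lie side by side and share peaks, as Fgf8 and Npm3 do by this count, so reads of neighbours are not independent.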

How the data were processed

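H3K27me3 ChIP-seq of sciatic nerve gave 1 ChIP library; the input library was not used here. Per the labels' protocols, fixation took 10 min in 1% formaldehyde, sonicated fragments averaged 0.5 to 2 kb, and 300 µg of chromatin was precipitated with 5 µg of antibody. Bowtie and mm10 are named, per the submitters' processing notes. How peaks were called, at which threshold and with what use of the input decides which are listed, and is not given in the sources used. The deposited values are a score per peak whose meaning the authors' file does not state. Scores rose in steps of 2.5735 (99.83% matched a multiple of this step to 0.05), so each was divided by the step and taken as reads, which is an inference. The total depth is unknown.

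Genes came from a RefSeq table of GRCm38.p6 without strand; strand and start sites came from the promoter table. Overlaps were counted with Python 3.11.15 and pandas 2.3.3, and tested on simulated peaks. Domains are peaks merged within 5 kb. Named were the 10 genes, all other Fgf ligands, the pathway genes with a peak and the genes next to Fgf8 in rank. Tlx3, Ccnd1, LTO1, Ano1, Dmtn, Npm1, Npm2, Wnt9b, Wnt3 and Gdf6 were named after their values were seen. The genes and lists were chosen with earlier results of these data known. Alternatives varied the flank, the score minimum, the overlap, the assignment to the nearest gene and the merging distance. Some planned marker genes are not reported here.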

Additional observations from a re-analysis of the deposited data

How the results depend on the processing

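No paired analysis was possible because there is 1 ChIP library and no test. Of the 10 genes, 10 kept a peak with flanks of 0, 2, 5 and 50 kb, with 50% of the peak in the window and with assignment to the nearest gene, and 8 did with peaks at or above the median score (36.0) or at least 2 times the lowest score; Fgf10 and Fgf18 were lost in both. Reads at the 10 genes, 532 as reported, were 486 with no flank, 933 with 50 kb, 457 at or above the median score and 428 at 2 times the lowest. Covered bases rose from 23602 to 36972 with 50 kb. Protein-coding genes with a peak, 2988 as reported, numbered 5574 with 50 kb (25.5%), 1953 at or above the median score (8.92%) and 1481 at 2 times the lowest (6.77%). At 2 times the lowest score, other Fgf ligands with a peak fell to 2, pathway genes to 5 and Wnt, Bmp and Gdf ligands to 17. Merged regions at the 10 genes numbered 11, and 8 to 15 under the alternatives. The larger flank and the higher score minimum act by their construction, adding or removing peaks. Depth limits the small peaks: 5 of the 18 held 10 or 11 reads, and the lack of replicates leaves variation between nerves unknown.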

Other observations

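Both regions that hold Fgf genes beside a D-type cyclin gene can be set side by side, a choice made after the values were seen. Ccnd2, on the side of Fgf23 away from Fgf6 on chromosome 6, had 121 reads (100.4 to 144.6) in 2 peaks, one of 3870 bp and over a gene end, against 15 reads at Fgf23 and 21 at Fgf6. Ccnd1, beyond Fgf15 on chromosome 7, had no peak within 10 kb, against 166 reads over Fgf3, Fgf4 and Fgf15. The order is thus opposite in the 2 regions. The counts describe 1 library, and the difference was not tested.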
